A study of Mus musculus with 9 samples.

Results

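Collagen genes were followed in RNA sequencing of mouse lung. All 44 genes annotated as protein coding with a symbol of the form Col, number, a, number were taken, out of 55851 genes in the table. They were separated into 11 fibrillar collagens, 8 basement membrane collagens (types IV, XV and XVIII) and 25 other collagens. RNA of total lung cells from female C57BL/6J mice was measured in 9 libraries, 3 in each of 3 groups, all with a time label of 7 weeks. The group WT OVA (replicates 5, 6 and 9) came from wild-type mice given ovalbumin, an allergen used to provoke allergic airway inflammation, and WT PBS (replicates 1, 2 and 3) from wild-type mice given phosphate-buffered saline instead. The group DJ-1 KO OVA is labelled as DJ-1 knockout with ovalbumin challenge, and its libraries are DJ1_KO_OVA_263, DJ1_KO_OVA_266 and DJ1_KO_OVA_267. The labels do not describe the knockout allele or the tissues that carry it, and an unchallenged knockout group was not analysed here. In bulk lung RNA, fewer cells of a type and less RNA per cell cannot be told apart.

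Collagens are trimeric extracellular proteins built from alpha chains, each encoded by its own gene. Fibrillar collagens form the tensile fibres of the airway wall, vessels and lung interstitium and are made mainly by fibroblasts. Type IV collagens form the sheet-like network of basement membranes under epithelium and endothelium, and type VI forms beaded filaments in the surrounding matrix. Deposition of fibrillar collagen beneath the airway epithelium is a known feature of airway remodelling in allergic disease.

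Park7, which encodes DJ-1, averaged 5.08 ± 1.92 FPKM in the knockout group, against 57.2 ± 3.78 for WT OVA and 46.7 ± 8.91 for WT PBS (SD, n = 3), lower in each knockout library than in any wild-type library (difference from WT OVA -3.42, SE 0.25, limma adjusted p = 0.00019). The libraries contained 20812192 to 29080130 reads assigned to genes, as recovered from the deposited FPKM (fragments per unit of gene length and of library size). The summed FPKM of a library ran from 308542 to 602047. The library size implied by the FPKM was 0.890 (WT OVA replicate 9) to 1.21 (DJ1_KO_OVA_263) times the recovered reads. The deposited values were thus not scaled by these reads alone. Ager, a marker of alveolar type 1 cells of the lung, was present in every library, at 195, 329 and 356 FPKM for WT PBS, 283, 301 and 351 for WT OVA and 122, 214 and 61.4 for DJ-1 KO OVA. Differences below are of mean log2(FPKM + 0.5), a scale that understates the change of low genes, and a gene was called at an adjusted p under 0.05 in limma over the 17716 genes whose mean FPKM reached 0.2. Each p-value reflects only how far 3 libraries a group spread; the labels do not say whether each is 1 animal.

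Of the 44 collagens, 30 reached the filter (8 fibrillar, 7 basement membrane and 15 others), and 22 of these averaged at least 1 FPKM in some group. Levels in saline-treated wild-type lung were led by Col1a1 at 81.2 ± 18.4 FPKM (SD, n = 3), Col3a1 at 58.5 ± 18.2, Col6a1 at 57.7 ± 17.5 and Col1a2 at 47.3 ± 8.73; the SDs of neighbours in this order overlap. The type IV chains Col4a1 and Col4a2 followed at 29.6 ± 10.3 and 28.9 ± 11.0 FPKM. Col1a1 was the highest collagen in both wild-type groups, whereas Col3a1 and Col1a1 averaged 190.2 and 190.0 FPKM in DJ-1 KO OVA. The other 14 collagens had mean FPKM from 0.0014 to 0.155 and at most 123 reads in any library. They include genes of cartilage collagens: Col2a1 had 0 to 3 reads, Col9a1 0 to 4, Col10a1 0 to 4 and Col11a1 0 to 9.

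The comparison of DJ-1 KO OVA with WT OVA sets challenged knockout lung against challenged wild-type lung. With no unchallenged knockout group analysed, a difference that precedes challenge cannot be told from a response to it. Of the 30 tested collagens 13 were higher in DJ-1 KO OVA and 0 were lower, with limma adjusted p-values under 0.05. Over all tested genes 5.93% were called higher, 8.24% lower and 14.2% in either direction. The median difference of the collagens was 0.69, and that of all genes was 0. The collagen median was 0.42 with the trend on gene length removed, 0.41 with GC content removed as well, 0.35 with no filter and 1.14 with a filter at 1 FPKM. Col6a5 and Col6a6 reached the filter only through the knockout group, with means below 0.2 FPKM over the 6 wild-type libraries; without these 2 genes 12 of 28 were higher, with a median of 0.63. By family, 6 of 8 fibrillar, 1 of 7 basement membrane and 6 of 15 other collagens rose. Of the last 6, 4 are type VI chains, and Col6a5 is among them. In 19 tested collagens all 3 DJ-1 KO OVA libraries lay above all 3 WT OVA libraries (18.4% of all genes), and in 1, Col8a2, all lay below (18.8% of all genes). The 19 include Col6a5 and Col6a6. Leaving out WT OVA replicate 6 lowered the count of 13 to 8, and leaving out WT OVA replicate 9 or DJ1_KO_OVA_267 lowered it to 6. Calls over all genes fell too, from 1051 higher and 1459 lower to 140 and 311, 159 and 316, and 124 and 161 in that order. Without DJ1_KO_OVA_266 the collagen count was 18, with 2713 of all genes higher and 2970 lower. The 5 genes Col3a1, Col5a2, Col6a2, Col6a5 and Col15a1 were called under all 19 alternatives tried, Col6a5 having reached the filter through its knockout level. DJ1_KO_OVA_267 had the highest value of the 9 libraries in 15 of the 30 collagens, and DJ1_KO_OVA_266 was the lowest of its group in 23. Rescaling to equal FPKM sums moved the median of all genes to 0.46 and that of the collagens to 1.20, with 17 collagens higher and 0 lower and 4435 of all genes higher against 596 lower, in place of 1051 and 1459.

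**Figure D1:**
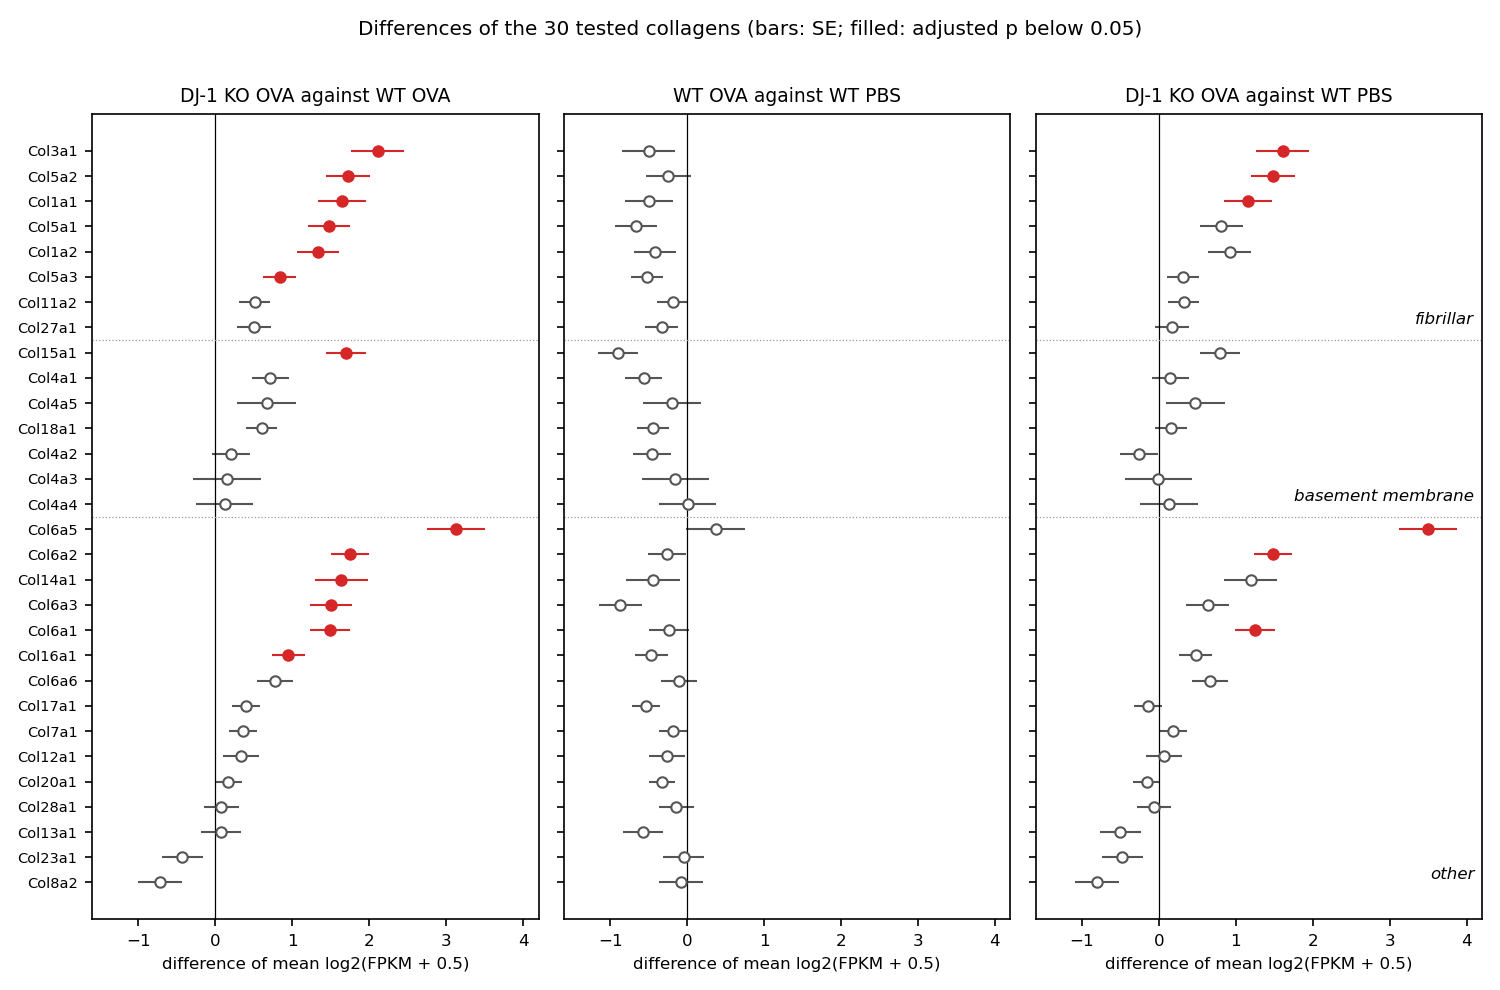
Differences of mean log2(FPKM + 0.5) for the 30 tested collagens in the 3 comparisons, by family, with bars for the SE and filled points for adjusted p below 0.05 (limma). The left panel holds 13 filled points, all above 0, the middle panel none, and the right panel 6.

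Type I collagen, the main tensile collagen, is assembled from the products of Col1a1 and Col1a2. Col1a1 (ENSMUSG00000001506, chromosome 11, 94936224 to 94953042, plus strand, GRCm38) was at 83.6, 61.8 and 98.3 FPKM for WT PBS, 65.0, 52.9 and 52.4 for WT OVA and 136, 143 and 291 for DJ-1 KO OVA, in order of replicate number. All 3 knockout libraries lay above all 6 wild-type libraries, with DJ1_KO_OVA_267 highest, and the difference from WT OVA was 1.65 (SE 0.31, limma adjusted p = 0.014). Col1a2 was at 48.3, 38.1 and 55.5 FPKM for WT PBS, 37.1, 35.7 and 32.4 for WT OVA and 79.2, 65.6 and 136 for DJ-1 KO OVA. Its knockout libraries also lay above the 6 wild-type libraries, and the difference from WT OVA was 1.33 (SE 0.27, limma adjusted p = 0.018). Without WT OVA replicate 6 or 9 Col1a1 lost its call (adjusted p up to 0.055 over the alternatives), and Col1a2 lost its call without any 1 of WT OVA replicates 5, 6 and 9 or DJ1_KO_OVA_267 (up to 0.066).

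Type III collagen, a homotrimer of the Col3a1 chain that accompanies type I in soft and newly laid matrix, showed the largest difference among the tested fibrillar genes. Col3a1 (ENSMUSG00000026043, chromosome 1, 45311538 to 45349706, plus strand) was at 50.5, 45.7 and 79.4 FPKM for WT PBS, 41.1, 38.4 and 40.7 for WT OVA and 158, 112 and 300.4 for DJ-1 KO OVA. The 3 WT OVA libraries were within a narrow range, the knockout libraries were spread widely above it, and the difference was 2.11 (SE 0.34, limma adjusted p = 0.0087). Its difference ran from 1.69 to 2.73 over the 19 alternatives. The ratio of Col3a1 to Col1a1 FPKM within a library, which does not depend on scaling between libraries, was 1.16, 0.785 and 1.03 in DJ-1 KO OVA and 0.632, 0.727 and 0.778 in WT OVA. The groups did not overlap, but DJ1_KO_OVA_266 lay next to WT OVA replicate 9. An exact two-sided permutation test of the means, 0.992 ± 0.190 and 0.712 ± 0.0739 (SD, n = 3), gave p = 0.1, the smallest that 3 libraries against 3 allow, and 0.27 after adjustment over 27 such tests of ratios, shares and sums. In WT PBS the ratio was 0.604, 0.739 and 0.807, and the highest of these exceeded the lowest knockout library.

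Type V collagen is a minor fibrillar collagen that co-assembles with type I and limits fibril width. Col5a2 (ENSMUSG00000026042, chromosome 1, 45374321 to 45503282, minus strand) lies downstream of Col3a1 on the same chromosome, in the opposite orientation. It was at 5.30, 4.53 and 8.37 FPKM for WT PBS, 4.93, 4.74 and 5.0 for WT OVA and 16.2, 12.2 and 26.1 for DJ-1 KO OVA. The WT OVA values were nearly equal, every knockout library lay above every wild-type library, and the difference from WT OVA was 1.72 (SE 0.29, limma adjusted p = 0.0094). Col5a1 was at 9.07, 5.93 and 11.0 FPKM for WT PBS, 5.50, 5.42 and 4.58 for WT OVA and 14.9, 11.0 and 21.2 for DJ-1 KO OVA. DJ1_KO_OVA_266 was just above WT PBS replicate 3, the groups under challenge did not overlap, and their difference was 1.47 (SE 0.27, limma adjusted p = 0.014). Col5a3, the least abundant type V chain here, was at 2.23, 1.77 and 2.18 FPKM for WT PBS, 1.68, 1.34 and 0.896 for WT OVA and 2.79, 2.26 and 2.99 for DJ-1 KO OVA, a difference of 0.84 (SE 0.21, limma adjusted p = 0.032). Col5a1 lost its call without WT OVA replicate 9 or DJ1_KO_OVA_267 (adjusted p up to 0.06). Col5a3 lost its call in 9 of 19 alternatives, among them each of WT PBS replicate 1, WT OVA replicates 5, 6 and 9 and DJ1_KO_OVA_263 and DJ1_KO_OVA_267 left out (up to 0.12).

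Among the remaining fibrillar genes, Col11a2 and Col27a1 differed by 0.51 (SE 0.20, limma adjusted p = 0.1) and 0.50 (SE 0.22, limma adjusted p = 0.13). Col24a1 (ENSMUSG00000028197, chromosome 3, 145292472 to 145552011, plus strand), a fibrillar collagen best known from bone, was below the filter with 4, 3 and 0 reads for WT PBS, 1, 2 and 7 for WT OVA and 63, 69 and 123 for DJ-1 KO OVA. In FPKM these are 0.0246, 0.0192 and 0, 0.00684, 0.0115 and 0.0467 and 0.240, 0.383 and 0.660. All 3 knockout libraries stood above all wild-type libraries, and the gene passed the threshold between the challenged groups when no filter was applied; it is named here after its values were seen.

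**Figure D2:**
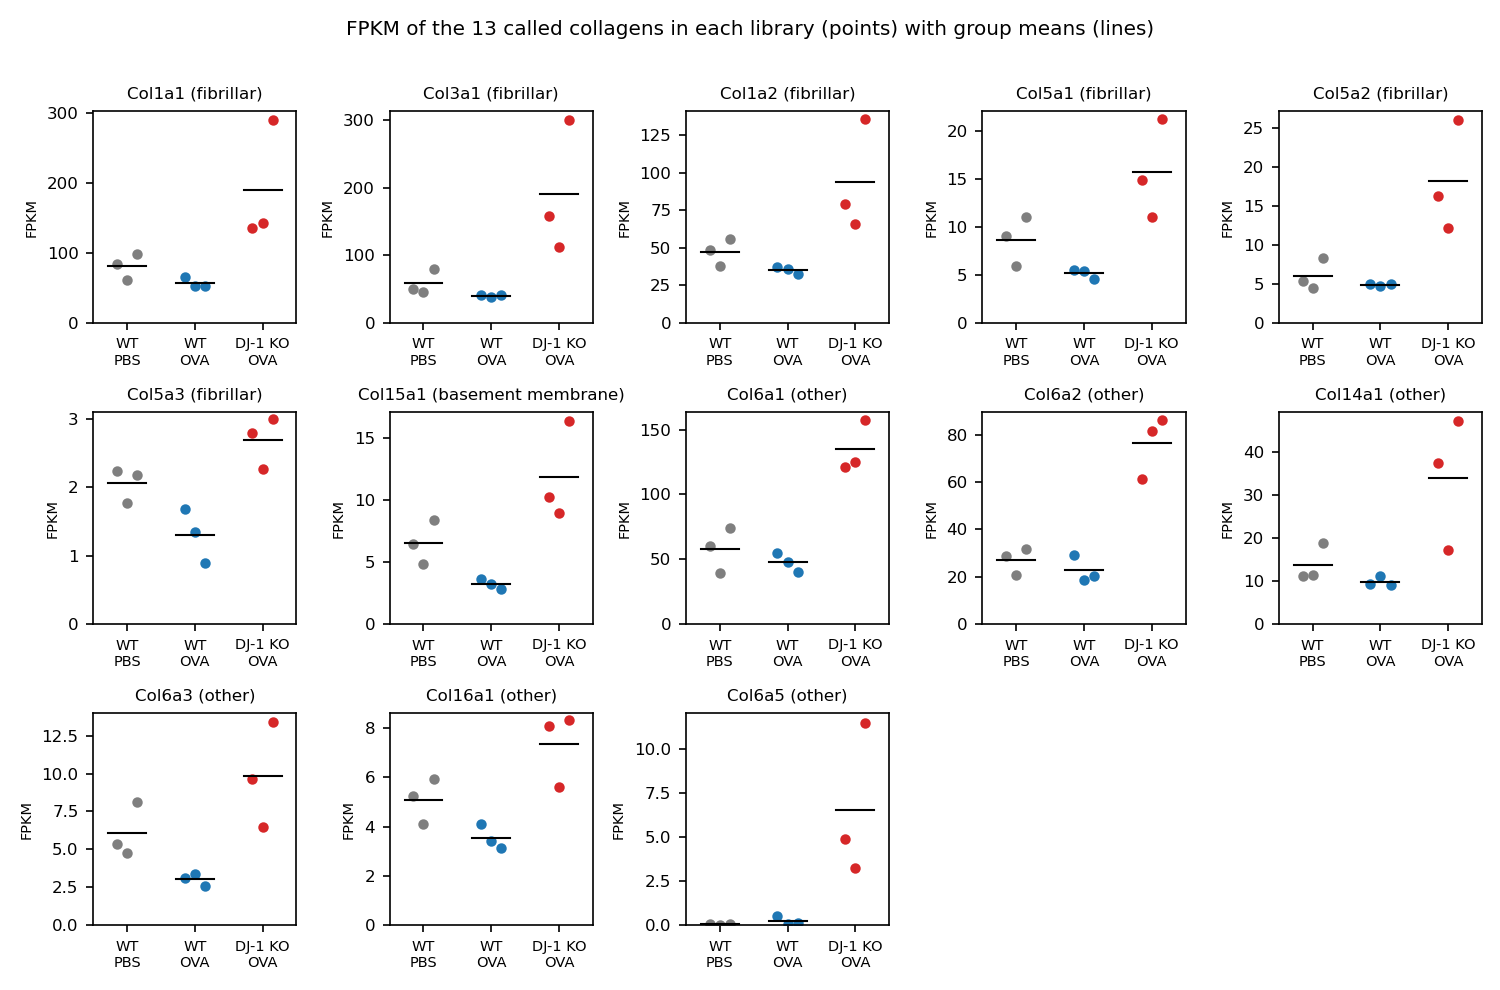
FPKM of the 13 collagens called higher in DJ-1 KO OVA than in WT OVA, with a point for each library and a line for the group mean. The knockout points lie above the WT OVA points in every panel, and for Col6a5 the wild-type points lie near 0.

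Type VI filaments link fibres to cells. Col6a1 was at 59.8, 39.3 and 74.1 FPKM for WT PBS, 54.9, 47.5 and 40.3 for WT OVA and 121, 125 and 157 for DJ-1 KO OVA, and the difference between the challenged groups was 1.49 (SE 0.26, limma adjusted p = 0.011). Col6a2, adjacent on chromosome 10 (ENSMUSG00000020241, chromosome 10, 76595762 to 76623630, minus strand), was at 28.7, 20.6 and 31.9 FPKM for WT PBS, 29.2, 18.4 and 20.2 for WT OVA and 61.4, 81.5 and 86.1 for DJ-1 KO OVA, a difference of 1.75 (SE 0.25, limma adjusted p = 0.0052). For both genes the knockout libraries stood clear of all 6 wild-type libraries and DJ1_KO_OVA_267 was again highest. Col6a3, whose chain joins the other two in the trimer, was at lower levels: 5.33, 4.73 and 8.12 FPKM for WT PBS, 3.07, 3.40 and 2.60 for WT OVA and 9.62, 6.46 and 13.4 for DJ-1 KO OVA. The challenged groups did not overlap (difference 1.5, SE 0.28, limma adjusted p = 0.013), but DJ1_KO_OVA_266 fell below WT PBS replicate 3. Col6a1 lost its call without DJ1_KO_OVA_267 (adjusted p = 0.054), and Col6a3 without that library or WT OVA replicate 9 (up to 0.058).

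Col6a5 had the highest difference of the tested collagens, and passed the filter through its knockout level. Col6a5 (ENSMUSG00000091345, chromosome 9, 105856078 to 105960643, minus strand) encodes 1 of 3 additional type VI chains in a cluster on chromosome 9. Its reads numbered 15, 5 and 16 for WT PBS, 94, 13 and 25 for WT OVA and 1582, 725 and 2640 for DJ-1 KO OVA. It was at 0.0746, 0.0259 and 0.0553 FPKM for WT PBS, 0.520, 0.0603 and 0.135 for WT OVA and 4.88, 3.26 and 11.5 for DJ-1 KO OVA. WT OVA replicate 5 was the highest wild-type library, and the lowest knockout library was above it. The difference from WT OVA was 3.13 (SE 0.38, limma adjusted p = 0.0024) and ran from 2.47 to 5.15 over the alternatives, the highest with a smaller pseudocount or on reads. Against WT PBS it was 3.50 (SE 0.38, limma adjusted p = 0.00094). Its neighbour Col6a6 was at 0.0868, 0.0478 and 0.160 FPKM for WT PBS, 0.0568, 0.0714 and 0.0333 for WT OVA and 0.758, 0.176 and 0.50 for DJ-1 KO OVA, without overlap between the challenged groups and not called (difference 0.77, SE 0.23, limma adjusted p = 0.0501). It was called higher with a pseudocount of 0.1, with limma-voom on reads, after rescaling to equal FPKM sums and without DJ1_KO_OVA_266. The third gene of the cluster, Col6a4, had 0 to 11 reads. Col6a5 ranked 33 among the 44 collagens by mean FPKM for WT PBS, 26 for WT OVA and 15 for DJ-1 KO OVA.

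To show the DNA at the starts of genes that moved together, the 250 bases before RefSeq's annotated start are printed for 1 called gene each of types III, V, VI and XV (GRCm38.p6). For Col3a1, Col5a1 and Col6a5 this start is that of the deposited table, and for Col15a1 the start in the table lies 149 bases further downstream. Capitals mark matches to 3 promoter motifs, searched on both strands, with the letters of a reverse match shown as they read on the printed strand. The first motif is the box CCAAT. The second, known as the GC box, is spelled GGGCGG. The third is TATAA, the start of many TATA boxes.
Col3a1 chr1:45311288-45311537, plus strand: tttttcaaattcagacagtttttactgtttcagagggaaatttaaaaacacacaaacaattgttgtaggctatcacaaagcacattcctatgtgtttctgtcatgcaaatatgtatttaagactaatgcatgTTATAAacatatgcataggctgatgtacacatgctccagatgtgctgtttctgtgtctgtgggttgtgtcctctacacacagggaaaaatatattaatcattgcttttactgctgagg
Col5a1 chr2:27886175-27886424, plus strand: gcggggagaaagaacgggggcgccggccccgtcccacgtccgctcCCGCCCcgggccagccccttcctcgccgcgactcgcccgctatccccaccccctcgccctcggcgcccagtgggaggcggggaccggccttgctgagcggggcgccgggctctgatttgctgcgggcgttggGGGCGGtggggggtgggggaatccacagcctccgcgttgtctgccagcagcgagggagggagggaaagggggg
Col6a5 chr9:105960644-105960893, minus strand: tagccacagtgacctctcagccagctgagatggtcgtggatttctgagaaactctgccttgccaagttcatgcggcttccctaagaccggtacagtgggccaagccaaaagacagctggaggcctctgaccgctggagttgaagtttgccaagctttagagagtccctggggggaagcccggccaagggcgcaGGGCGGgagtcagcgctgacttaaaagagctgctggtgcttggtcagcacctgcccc
Col15a1 chr4:47207762-47208011, plus strand: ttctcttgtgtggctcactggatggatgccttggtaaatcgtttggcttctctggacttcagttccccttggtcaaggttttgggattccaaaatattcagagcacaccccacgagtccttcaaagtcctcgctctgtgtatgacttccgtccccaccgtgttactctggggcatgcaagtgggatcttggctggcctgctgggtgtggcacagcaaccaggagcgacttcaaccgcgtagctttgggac
The Col3a1 window holds overlapping matches to TATAA on both strands, the Col5a1 window GGGCGG on each strand and the Col6a5 window GGGCGG once; the Col15a1 window holds none of the 3. Over 32851 windows of this length, 33.8% held CCAAT, 32.7% GGGCGG and 22.8% TATAA. Of the 35 collagens with a window in the table, 13 held CCAAT, 21 GGGCGG and 7 TATAA. A collagen was counted if any window listed for it matched, whereas the percentages are of single windows. Col1a1, Col5a2 and Col14a1 are among the 9 collagens without a window. These matches describe letters only.

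Fibril-associated collagens sit on the surface of type I fibres. Col14a1 was at 11.1, 11.3 and 18.9 FPKM for WT PBS, 9.16, 11.0 and 8.95 for WT OVA and 37.2, 17.1 and 47.2 for DJ-1 KO OVA. DJ1_KO_OVA_266 was below WT PBS replicate 3 but above every WT OVA library, and the difference under challenge was 1.64 (SE 0.35, limma adjusted p = 0.02). Col16a1 was at 5.26, 4.1 and 5.94 FPKM for WT PBS, 4.11, 3.42 and 3.11 for WT OVA and 8.08, 5.62 and 8.34 for DJ-1 KO OVA, a difference of 0.94 (SE 0.21, limma adjusted p = 0.024). Col14a1 lost its call without any 1 of WT OVA replicates 5, 6 and 9 or DJ1_KO_OVA_267 (adjusted p up to 0.082), and Col16a1 without any of these or DJ1_KO_OVA_263 (up to 0.1). Both also lost their calls when no filter was applied. Col12a1, of the same class, averaged 0.507 ± 0.268 FPKM in DJ-1 KO OVA against 0.283 ± 0.0495 in WT OVA (SD, n = 3), and was not called (adjusted p = 0.33), nor was Col20a1 (adjusted p = 0.51).

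Among the membrane-bound and network collagens 0 were called. Of the 3 tested transmembrane collagens, Col13a1 differed by 0.08, Col17a1, a hemidesmosome component of epithelial cells, by 0.40, and Col23a1 by -0.43, with limma adjusted p of 0.85, 0.14 and 0.27. Col8a2 (ENSMUSG00000056174, chromosome 4, 126286793 to 126314330, plus strand), a short-chain network collagen, had the most negative difference of any tested collagen, -0.72 (SE 0.28, limma adjusted p = 0.1). It was at 1.88, 1.48 and 1.51 FPKM for WT PBS, 1.16, 2.62 and 1.05 for WT OVA and 0.725, 1.02 and 0.464 for DJ-1 KO OVA. All knockout libraries lay below all wild-type libraries, and the gap between DJ1_KO_OVA_266 and WT OVA replicate 9 was small. The anchoring fibril gene Col7a1 differed by 0.36 (SE 0.18, limma adjusted p = 0.18), with all knockout libraries above all WT OVA libraries.

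Of the 7 tested basement membrane collagens 1, Col15a1, rose. Col15a1 (ENSMUSG00000028339, chromosome 4, 47208161 to 47313167, plus strand), a basement membrane zone proteoglycan that links the membrane to fibrils, was at 6.47, 4.86 and 8.36 FPKM for WT PBS, 3.59, 3.24 and 2.82 for WT OVA and 10.3, 8.96 and 16.4 for DJ-1 KO OVA. Its WT OVA libraries were the lowest 3 of 9 and its knockout libraries the highest 3, with a difference between them of 1.70 (SE 0.26, limma adjusted p = 0.0072). Col18a1, its relative and the source of endostatin, was at 6.71, 5.11 and 7.73 FPKM for WT PBS, 5.39, 4.62 and 3.92 for WT OVA and 6.34, 8.12 and 7.41 for DJ-1 KO OVA. The challenged groups did not overlap, but the difference of 0.60 (SE 0.20, limma adjusted p = 0.069) was not called.

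The main type IV chains are encoded by Col4a1 and Col4a2, whose annotated starts on chromosome 8 lie head to head and overlap by 22 bases. Col4a1 was at 24.8, 22.8 and 41.4 FPKM for WT PBS, 18.6, 20.4 and 18.6 for WT OVA and 31.1, 27.3 and 38.0 for DJ-1 KO OVA. The knockout libraries lay above those of WT OVA but within the range of WT PBS, and the difference from WT OVA was 0.72 (SE 0.24, limma adjusted p = 0.069). It passed without WT PBS replicate 3 (adjusted p = 0.038) or without DJ1_KO_OVA_266 (0.038), and after rescaling to equal FPKM sums (0.023). Col4a2 was at 23.0, 22.0 and 41.6 FPKM for WT PBS, 19.6, 21.3 and 19.1 for WT OVA and 20.2, 25.4 and 23.8 for DJ-1 KO OVA, a difference of 0.20 (SE 0.25, limma adjusted p = 0.58), with DJ1_KO_OVA_263 inside the WT OVA range. The ratio of Col4a1 to Col4a2 FPKM, examined after these values were seen, was 1.07, 1.03 and 0.997 in WT PBS and 0.948, 0.957 and 0.974 in WT OVA. It was 1.54, 1.08 and 1.59 in DJ-1 KO OVA, where DJ1_KO_OVA_266 lay at the top of the WT PBS range. The knockout and WT OVA means were 1.40 ± 0.284 and 0.960 ± 0.0131 (SD, n = 3; exact permutation p = 0.1, adjusted 0.27). WT OVA also lay wholly below WT PBS, 1.04 ± 0.0387 (exact permutation p = 0.1, adjusted 0.27).

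The chains of the specialised type IV network, used by alveolar and glomerular basement membranes, were low. Col4a3 was at 0.404, 1.20 and 2.75 FPKM for WT PBS, 0.559, 1.20 and 1.52 for WT OVA and 1.97, 0.829 and 1.01 for DJ-1 KO OVA. Col4a4 was at 0.715, 1.07 and 3.13 FPKM for WT PBS, 0.933, 1.78 and 1.66 for WT OVA and 2.11, 1.26 and 1.48 for DJ-1 KO OVA. Both genes varied more within groups than between them, WT PBS replicate 3 was highest for both, and their differences from WT OVA were 0.15 (SE 0.44, limma adjusted p = 0.83) and 0.12 (SE 0.37, limma adjusted p = 0.84). They start 71 bases apart on chromosome 1, divergently. That shared stretch, with no annotated exon, is shown on the minus strand, in the direction of Col4a4, from RefSeq's GRCm38.p6; it has no capitals because none of the 3 motifs matched.
Col4a4 to Col4a3 interval, chr1:82586850-82586920: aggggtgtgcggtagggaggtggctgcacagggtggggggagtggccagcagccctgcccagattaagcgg
Col4a5 was at 2.90, 2.63 and 5.64 FPKM for WT PBS, 2.14, 4.31 and 2.93 for WT OVA and 6.65, 2.68 and 7.19 for DJ-1 KO OVA, with DJ1_KO_OVA_266 inside the WT OVA range and a difference of 0.67 (SE 0.38, limma adjusted p = 0.23). Col4a6, 1308 bases from Col4a5 and divergent, was below the filter with 8 to 38 reads. The ratio of Col4a3 and Col4a4 to Col4a1 and Col4a2 was 0.0532 ± 0.0227 in DJ-1 KO OVA, 0.0650 ± 0.0233 in WT OVA and 0.0484 ± 0.0239 in WT PBS (SD, n = 3), with exact permutation p of 0.4 to 0.9.

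**Figure D3:**
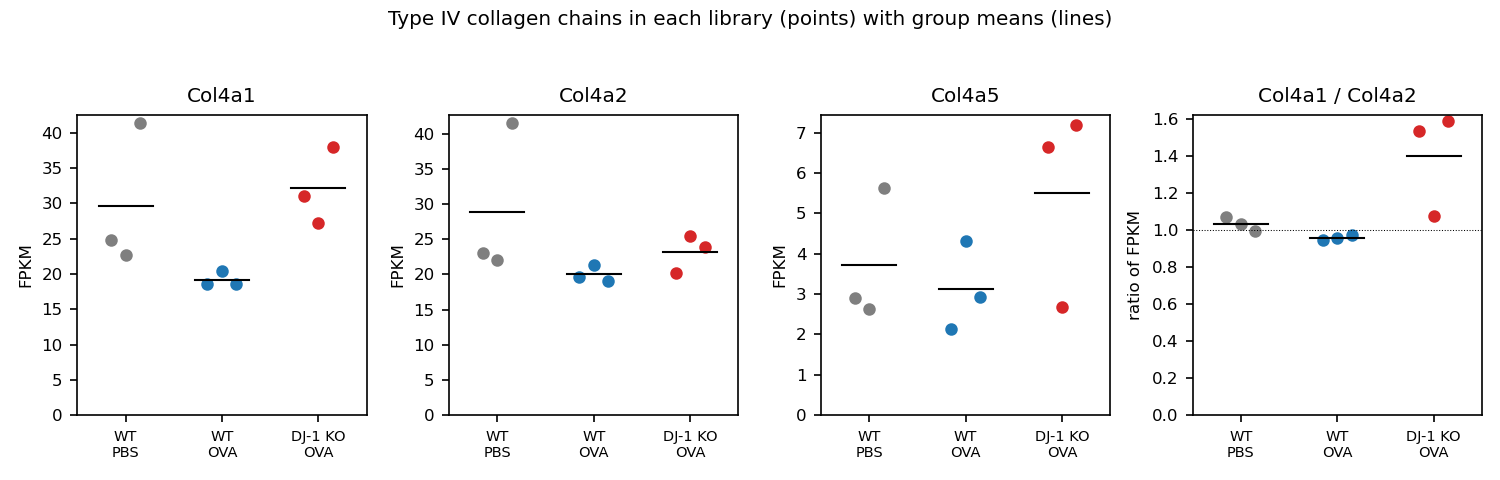
FPKM of Col4a1, Col4a2 and Col4a5 and the ratio of Col4a1 to Col4a2 FPKM in each library (points) with group means (lines). WT PBS replicate 3 is the highest point for Col4a1 and Col4a2, and in the ratio panel 2 of 3 knockout points lie above 1.5.

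Shares of the summed collagen FPKM do not depend on scaling between libraries. The sum over 44 genes was 389.6 in WT PBS replicate 1, 310.2 in replicate 2 and 522 in replicate 3, and 318, 296 and 271 in WT OVA. It was 744, 670.1 and 1209 in DJ-1 KO OVA, above all wild-type libraries. Fibrillar genes contributed 57.2 ± 6.53% (SD, n = 3) in DJ-1 KO OVA, 49.0 ± 1.60% in WT OVA and 50.6 ± 1.30% in WT PBS. The fibrillar shares of the knockout libraries were 55.1, 52.0 and 64.5%, each above the 49.1 to 51.4% of WT PBS and the 47.3 to 50.5% of WT OVA. Between DJ-1 KO OVA and WT OVA the mean fibrillar share differed by 8.19 percentage points, and by 6.18 with the trend on gene length removed. That difference was 4.53 without DJ1_KO_OVA_267 and 10.8 without DJ1_KO_OVA_266. Type IV genes contributed 7.62 ± 1.47% in DJ-1 KO OVA, 15.3 ± 1.86% in WT OVA and 15.8 ± 2.41% in WT PBS (SD, n = 3), with knockout libraries at 8.35, 8.58 and 5.92% and all wild-type libraries at 13.2% or more. This is a share of a larger sum, not a level. Mean FPKM of Col4a1 was 32.1 in DJ-1 KO OVA, 19.2 in WT OVA and 29.6 in WT PBS, and that of Col4a2 was 23.1, 20.0 and 28.9. For both shares the exact two-sided permutation p was 0.1 for DJ-1 KO OVA against either wild-type group, the smallest possible, and 0.27 adjusted. The type VI share was 27.1 ± 5.04%, 24.8 ± 2.45% and 22.3 ± 1.66% in the same order (SD, n = 3), with overlapping libraries (exact permutation p = 0.7 between the challenged groups).

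**Figure D4:**
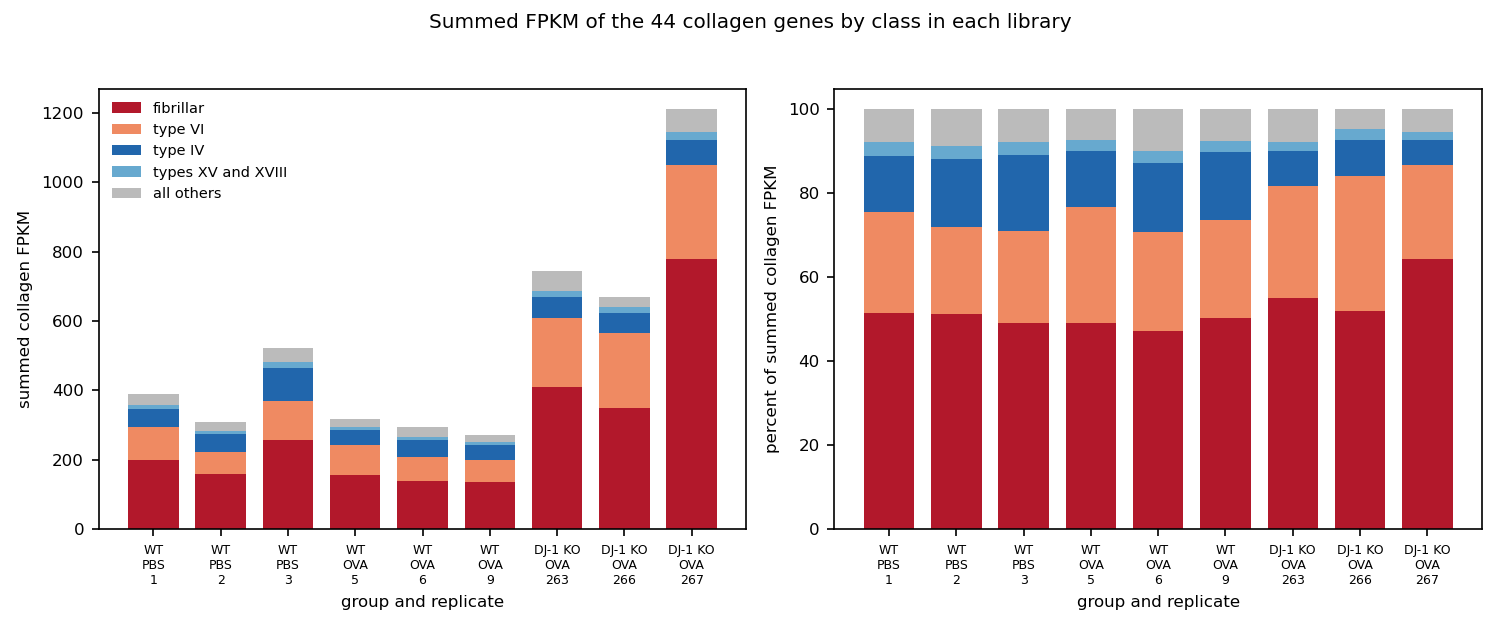
Summed FPKM of the 44 collagens in each library, stacked by class (left, FPKM; right, percent of the sum). Knockout sums run from 670.1 to 1209 FPKM, and the type IV band takes 5.92 to 8.58% in knockout libraries and 13.2 to 18.1% in wild-type libraries.

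The comparison of WT OVA with WT PBS asks what ovalbumin changes in wild-type lung. In limma 0 collagens were called, and over all genes 1 of 17716 was (0.00564%); at unadjusted p under 0.05, 6 collagens were lower (2.82% of all genes) and 0 higher (3.65%), and limma-voom on recovered reads called 0. Differences of 28 of 30 collagens were negative, with a median of -0.33 against 0.00 over all genes. That median was -0.19 without WT PBS replicate 3, -0.18 with no filter and -0.14 with trends on length and GC content removed. In 12 collagens the 3 WT OVA libraries lay wholly below the 3 WT PBS libraries (7.52% of all genes), and in 0 wholly above (7.25%). The lowest values were those of Col15a1, -0.90 (SE 0.26, limma adjusted p = 0.73), and Col6a3, -0.87 (SE 0.28, limma adjusted p = 0.73); the other 4 with unadjusted p under 0.05 were Col17a1 (-0.53), Col5a1 (-0.66), Col4a1 (-0.56) and Col5a3 (-0.52). WT PBS replicate 3 was the highest of its group in 26 of 30 collagens. Rescaling to equal FPKM sums moved the median of all genes to -0.22 and that of the collagens to -0.56, with 0 called. Col6a5 and Col4a4 had the 2 positive differences, 0.37 (SE 0.38, limma adjusted p = 0.8) and 0.01 (SE 0.37, limma adjusted p = 0.998).

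DJ-1 KO OVA against WT PBS shares libraries with both comparisons above. Of 30 collagens 6 rose (Col1a1, Col3a1, Col5a2, Col6a1, Col6a2 and Col6a5; limma adjusted p under 0.05) and 0 fell, against 4.07% of all genes higher and 4.47% lower, 8.54% in all. Without Col6a5 and Col6a6, 5 of 28 rose. The median collagen difference was 0.32, and that of all genes 0.00; the collagen median was 0.16 with the length trend removed, 0.14 with no filter, 0.52 without WT PBS replicate 3, 0.56 with a filter at 1 FPKM and 0.56 after rescaling to equal FPKM sums, which moved that of all genes to 0.24. Col3a1 differed by 1.61 (SE 0.34, limma adjusted p = 0.02), Col5a2 by 1.48 (SE 0.29, limma adjusted p = 0.014) and Col6a2 by 1.49 (SE 0.25, limma adjusted p = 0.0081). Col1a1 and Col6a1 differed by 1.16 (SE 0.31, limma adjusted p = 0.046) and 1.25 (SE 0.26, limma adjusted p = 0.018). Col1a1 lost its call in 10 of 19 alternatives, among them each WT PBS library, each WT OVA library and DJ1_KO_OVA_267 left out, no filter and the length trend removed (adjusted p up to 0.15). Col3a1, Col5a2 and Col6a1 lost theirs without WT PBS replicate 1, WT PBS replicate 2 or DJ1_KO_OVA_267 (up to 0.081, 0.062 and 0.078). With WT OVA left out of the fit Col1a1, Col3a1 and Col6a1 lost their calls, and with no filter Col3a1 did too. Col15a1, whose WT OVA level was the lowest of the 3 groups, differed by 0.79 (SE 0.26, limma adjusted p = 0.085) and was not called; it passed without DJ1_KO_OVA_266 (adjusted p = 0.033). The count of 6 fell to 2 without any 1 of WT PBS replicates 1 and 2 and DJ1_KO_OVA_267. All-gene calls, 721 higher and 792 lower as reported, were then 200 and 243, 230 and 313, and 254 and 229. Without DJ1_KO_OVA_266 the collagen count was 13, with 1894 of all genes higher and 1994 lower. With WT OVA left out of the fit it was 3, with 318 and 382. Col6a2 and Col6a5 were called in all 19 alternatives, Col6a5 having reached the filter through its knockout level. Groups did not overlap for 11 collagens in the higher direction (12.7% of all genes) and 3 in the lower (12.9%): Col8a2, Col20a1 and Col23a1. The 11 include Col6a5 and Col6a6.

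Genes that make, export and cross-link collagen were listed separately; over all tested genes 5.93% were called higher and 8.24% lower between the challenged groups. Of 15 hydroxylases and glycosyltransferases, which modify the chains in the endoplasmic reticulum, 0 were called between the challenged groups (limma; median difference 0.21); the 4 with the smallest p over the 3 comparisons were P3h1 (difference 0.65, SE 0.22, limma adjusted p = 0.065), Crtap (difference 0.61, SE 0.22, limma adjusted p = 0.081), P4ha3 (difference 0.55, SE 0.21, limma adjusted p = 0.086) and P4hb (difference 0.64, SE 0.26, limma adjusted p = 0.11). Of 11 chaperone and export genes 5 rose and 1 fell, with a median of 0.72. Serpinh1, which encodes the collagen chaperone HSP47, was at 115, 96.8 and 103 FPKM for WT PBS, 89.6, 69.7 and 64.6 for WT OVA and 118, 147 and 112 for DJ-1 KO OVA, and differed by 0.75 (SE 0.22, limma adjusted p = 0.046). Mia3 and Sec24d, of the export machinery for large procollagen, rose by 1.06 and 1.23 (limma adjusted p = 0.036 and 0.013), and the secretory pathway transcription factors Creb3l1 and Creb3l2 by 0.90 and 1.04 (0.023 and 0.035). Fkbp7, a prolyl isomerase, averaged 9.62 ± 2.39 FPKM in DJ-1 KO OVA against 19.7 ± 3.63 in WT OVA (SD, n = 3) and was the member that fell (adjusted p = 0.039, limma).

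Among 7 cross-linking enzymes 3 rose and 0 fell. Lox, lysyl oxidase, was at 4.32, 4.24 and 5.66 FPKM for WT PBS, 3.16, 5.12 and 4.54 for WT OVA and 16.0, 8.09 and 22.9 for DJ-1 KO OVA, with all knockout libraries highest and a difference of 1.67 (SE 0.33, limma adjusted p = 0.017). Loxl2 and Loxl4 rose by 1.13 and 1.12 (limma adjusted p = 0.032 and 0.018), while Loxl1, the most abundant lysyl oxidase gene here, differed by 0.27 (SE 0.22, limma adjusted p = 0.4) and Loxl3 by 0.61 (SE 0.20, limma adjusted p = 0.061). Of the 7 tested procollagen processing genes 0 rose and 1 fell: Pcolce2, an enhancer of C-propeptide cleavage, with a difference of -0.94 (SE 0.23, limma adjusted p = 0.029). Its relative Pcolce differed by 0.67 (SE 0.21, limma adjusted p = 0.056) and the N-proteinases Adamts2 and Adamts14 by 0.84 (SE 0.27, limma adjusted p = 0.057) and 0.56 (SE 0.25, limma adjusted p = 0.13). Among 8 fibril-binding proteoglycans 0 rose and 2, Aspn and Ogn, fell, with differences of -0.87 (SE 0.22, limma adjusted p = 0.031) and -1.09 (SE 0.30, limma adjusted p = 0.042); biglycan (Bgn) differed by 0.70 (SE 0.23, limma adjusted p = 0.062), and decorin (Dcn) was at 94.6, 129.5 and 80.3 FPKM for WT PBS, 104, 137 and 108 for WT OVA and 101.4, 43.6 and 76.5 for DJ-1 KO OVA and not called (difference -0.72, SE 0.32, limma adjusted p = 0.13).

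Collagen-degrading proteases divided. Ctsk, which encodes the collagenolytic cathepsin K, was at 41.6, 34.7 and 32.3 FPKM for WT PBS, 147, 58.1 and 154 for WT OVA and 211, 682 and 829.8 for DJ-1 KO OVA; each group lay above the one before it, and the knockout differed from WT OVA by 2.16 (SE 0.51, limma adjusted p = 0.027). Mmp13 and Mmp14, a collagenase and a membrane-bound protease, rose by 1.64 and 1.18 (limma adjusted p = 0.043 and 0.027). Mmp8 and Mmp9, the collagenase and gelatinase of neutrophil granules, fell, with differences of -1.19 and -1.09 (adjusted p = 0.014 and 0.031). Of 9 tested collagen receptors 0 rose and 1 fell, the leukocyte inhibitory receptor Lair1 (difference -1.15, SE 0.31, limma adjusted p = 0.037); Ddr2, a receptor kinase of fibroblasts, was not called (difference 0.82, SE 0.35, limma adjusted p = 0.13), nor were the endocytic receptor Mrc2 (difference 0.48, SE 0.19, limma adjusted p = 0.1) and the integrin subunit Itgb1 (difference 0.50, SE 0.24, limma adjusted p = 0.16). In WT OVA against WT PBS 0 genes of any of these 7 lists were called (0.00564% of all genes). In DJ-1 KO OVA against WT PBS, where 4.07% of all genes were higher and 4.47% lower, the list genes called higher were Creb3l2, Sec24d, Lox, Loxl4, Mmp13 and Ctsk, and those called lower were Pcolce2, Lair1, Mmp8 and Mmp9.

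Markers of the cells that make collagen were measured beside these changes, and their part in them was not tested. Of 10 fibroblast markers 0 rose and 1, Inmt, fell between the challenged groups, with a summed level of 325 to 436 FPKM in DJ-1 KO OVA, 669.7 to 1046 in WT OVA and 669.5 to 806 in WT PBS. The sums without Inmt were 199 to 293 FPKM in DJ-1 KO OVA, 236 to 309 in WT OVA and 269 to 283 in WT PBS, and 6 of the 10 differences were positive, with a median of 0.055. Inmt, the most abundant, was at 422, 529.5 and 387 FPKM for WT PBS, 434, 737 and 484 for WT OVA and 143, 127 and 94.7 for DJ-1 KO OVA, with no overlap (difference -2.16, SE 0.29, limma adjusted p = 0.004); Pdgfra was at 5.11, 5.83 and 8.19 FPKM for WT PBS, 4.02, 6.83 and 5.30 for WT OVA and 11.9, 5.35 and 10.3 for DJ-1 KO OVA (difference 0.67, SE 0.31, limma adjusted p = 0.14). Of 7 tested markers of activated fibroblasts 3 rose (5.93% of all genes), and 6 of the 7 differences were positive, with a median of 0.48. Sums were 179 to 424 FPKM in DJ-1 KO OVA, 49.8 to 83.3 in WT OVA and 52.5 to 80.8 in WT PBS. Fn1 alone gave 152, 207 and 381 of the 179, 245 and 424 FPKM in the 3 knockout libraries. Postn, the matricellular protein periostin, was at 0.554, 0.789 and 0.987 FPKM for WT PBS, 1.33, 0.286 and 0.970 for WT OVA and 9.74, 8.23 and 22.1 for DJ-1 KO OVA (difference 3.30, SE 0.39, limma adjusted p = 0.002). Fn1, fibronectin, was at 41.0, 25.5 and 55.7 FPKM for WT PBS, 60.8, 29.4 and 42.9 for WT OVA and 152, 207 and 381 for DJ-1 KO OVA (difference 2.41, SE 0.40, limma adjusted p = 0.0092), and Tnc, tenascin C, differed by 0.79 (SE 0.19, limma adjusted p = 0.029). The smooth muscle actin gene Acta2 was not called (difference 0.10, SE 0.24, limma adjusted p = 0.78), and Cthrc1 was below the filter at 0 to 0.365 FPKM.

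In the other marker lists for this comparison, to be read against the 5.93% and 8.24% of all genes called higher and lower, 1 of 10 tested pericyte and smooth muscle genes rose (Cspg4) and 1 fell (Cox4i2), with sums of 10.2 to 12.9 FPKM in DJ-1 KO OVA and 11.8 to 14.4 in WT OVA. Of 13 endothelial markers 0 rose and 1 (Emcn) fell, and 1 of the 13 differences was positive, with a median of -0.69. Their sums were 90.3, 372 and 154 FPKM in DJ-1 KO OVA and 186 to 319.6 in WT OVA. Of 9 tested alveolar type 1 markers 0 rose and 3 (Ager, Hopx and Aqp5) fell, with sums of 148 to 365 and 473 to 597. Among 10 chondrocyte markers 3 were tested and 1 (Cytl1) fell, and Acan, their defining proteoglycan, was at 0 FPKM in 7 of 9 libraries. The 13 mitochondrially encoded protein genes summed to 11824 to 20149 FPKM in DJ-1 KO OVA, 34485 to 36948 in WT OVA and 17428 to 31603 in WT PBS; 9 of them were called lower in DJ-1 KO OVA than in WT OVA. Whether these levels bear on the collagen values was not tested.

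**Figure D5:**
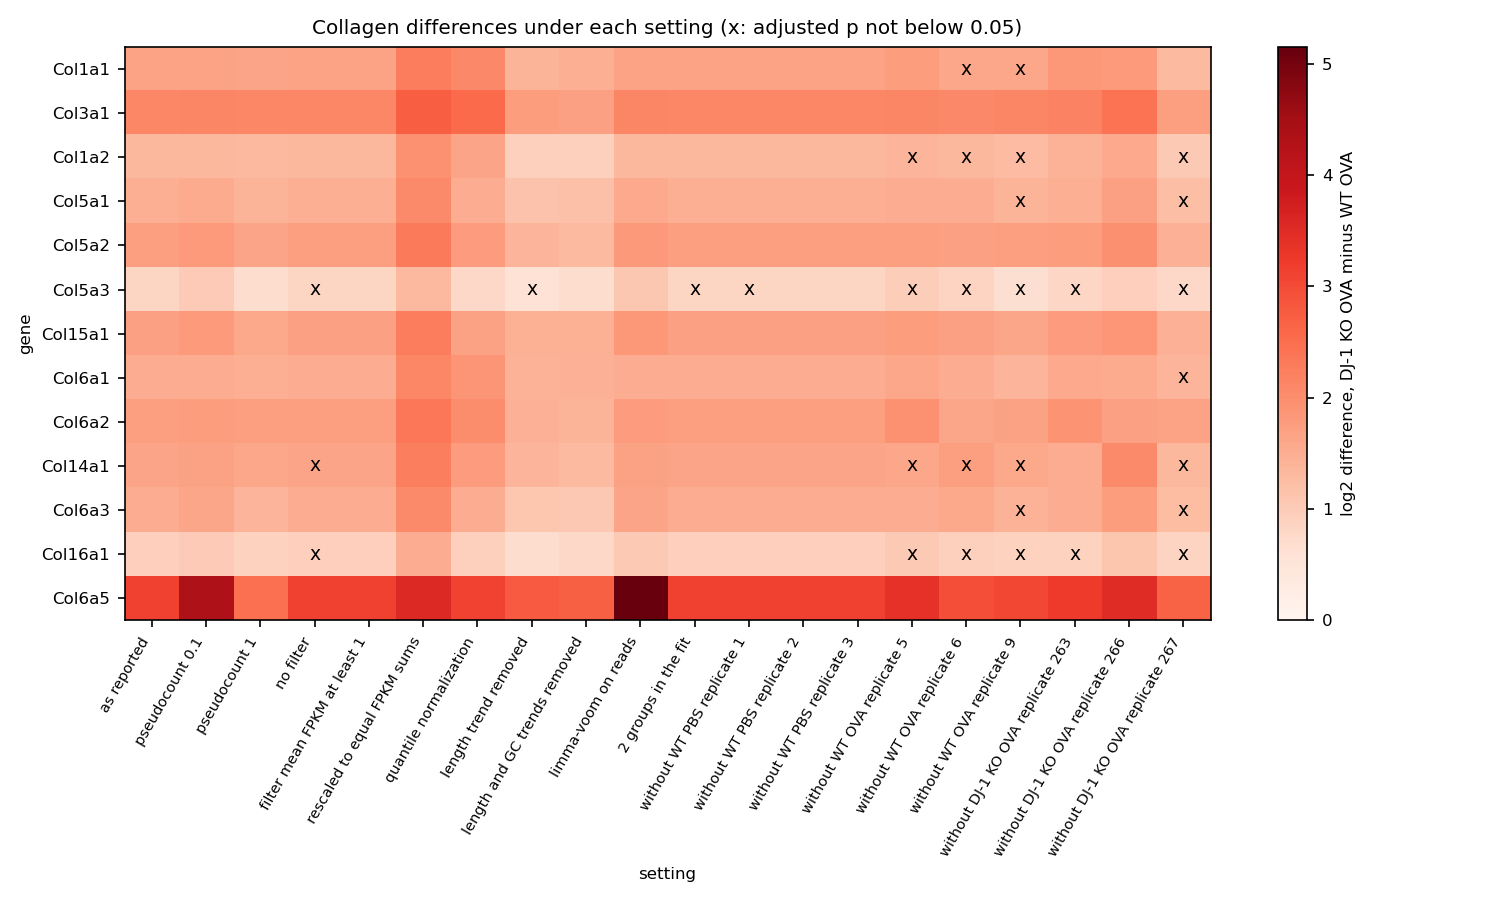
Difference between DJ-1 KO OVA and WT OVA (log2 scale) of the 13 called collagens as reported and under each of 19 alternatives; crosses mark an adjusted p not below 0.05. Every cell is above 0, and the rows of Col3a1, Col5a2, Col15a1, Col6a2 and Col6a5 hold no cross.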

How the data were processed

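Per the labels' protocols, 9 TruSeq RNA libraries (Illumina) were sequenced from total RNA of lung cells. The submitters' processing notes name the build GRCm38.p6 and the tools HISAT2, HTSeq and Trimmomatic. Their versions and roles, and whether strand was used in counting, are not given in the sources that were used here; where genes overlap, as Col4a1 and Col4a2 do at their start, it is uncertain which gene a read belongs to. Values in the deposited table are FPKM per gene, beside symbol, position and length, per the file headers. In each library, FPKM times length came in whole steps for 100% of values above 0 (tolerance 0.01 reads), which recovered the reads, 20812192 to 29080130 a library.

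Here log2(FPKM + 0.5) was fitted with limma 3.58.1 (R 4.3.3; limma-trend, 3 group means, 6 residual degrees of freedom, Benjamini-Hochberg over 17716 genes with mean FPKM of at least 0.2). The test was also run on simulated counts with the same spread set for every gene, which cannot vouch for calls under the spread of these libraries. Ratios, shares and sums within a library were compared by exact two-sided permutation tests (SciPy 1.17.1), 27 in all; 15 of these, on type VI share, summed FPKM and 3 chain ratios, were added after values were seen. Values in every library are given for called collagens with mean FPKM of at least 1 in a group and for a set of main chains; of each pathway list, counts and up to 4 members with the smallest p over the 3 comparisons, and of each marker list, counts and called members, others being chosen after their values were seen. The members and lists were chosen with earlier results of these data known. Alternatives changed the pseudocount, filter, scaling, length and GC trends, the fit and the libraries. GENCODE vM21 gave GC content, and RefSeq promoter windows (GRCm38.p6) matched 35 of 44 collagens.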

Additional observations from a re-analysis of the deposited data

How the results depend on the processing

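The filter left out the low members: 14 collagens had a mean below 0.2 FPKM, with at most 123 reads in any library, and were not tested. No paired analysis was possible because the labels give the groups no replicate numbers in common. Leaving out 1 library gave 6 to 18 collagens called between DJ-1 KO OVA and WT OVA, 2 to 13 between DJ-1 KO OVA and WT PBS, and 0 between WT OVA and WT PBS. Individually, the first count was 8 when WT OVA replicate 6 was left out, and 6 when WT OVA replicate 9 or DJ1_KO_OVA_267 was. All-gene calls between the challenged groups moved as well, from 124 higher and 161 lower without DJ1_KO_OVA_267 to 2713 and 2970 without DJ1_KO_OVA_266. Fitting only the 2 groups compared gave 3 in place of 6 between DJ-1 KO OVA and WT PBS, where fewer libraries enter the fit. Over all genes that fit called 318 higher and 382 lower, in place of 721 and 792. Over the other alternatives, including trends on length and GC content removed (added after seeing the data), the collagen counts were 11 to 17, 5 to 8 and 0. Signs turned only among differences that were not called, and the cause was not tested. With the trend on gene length removed, the knockout against WT OVA gave -0.0460 for Col4a2, -0.21 for Col4a3 and -0.26 for Col4a4, and against WT PBS it gave -0.00407 for Col18a1, -0.0288 for Col4a1 and -0.12 for Col4a4. With GC content removed as well, Col4a3 and Col4a4 were at -0.29 and -0.33 against WT OVA, and Col4a4 at -0.16 against WT PBS. Rescaling to equal FPKM sums gave 0.0431 for Col4a2 and 0.22 for Col4a3 (knockout and WT PBS) and -0.23 for Col4a4 (WT OVA and WT PBS). Pseudocounts of 0.1 and 1 gave 0.0633 for Col4a3 (knockout and WT PBS) and -0.0122 for Col4a4 (WT OVA and WT PBS), and limma-voom 0.0696 for Col4a3 (knockout and WT PBS). Leaving out 1 library at a time, the differences between knockout and WT OVA ran from -0.12 to 0.35 for Col4a3 and -0.0894 to 0.25 for Col4a4. Between DJ-1 KO OVA and WT PBS they ran from -0.00926 to 0.42 for Col4a1, -0.42 to 0.0329 for Col4a2, -0.46 to 0.46 for Col4a3 and -0.19 to 0.60 for Col4a4, and between WT OVA and WT PBS from -0.61 to 0.31 for Col4a3, -0.32 to 0.47 for Col4a4 and -0.42 to 0.11 for Col4a5. The type IV share differed between WT OVA and WT PBS by -1.75 to 0.650 percentage points, the ratio of Col3a1 to Col1a1 by -0.0609 to 0.0408 (0.00881 with the length trend removed), and the ratio of Col4a3 and Col4a4 to Col4a1 and Col4a2 between DJ-1 KO OVA and WT PBS by -0.00834 to 0.0160.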

Other observations

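Of the collagens below the filter, Col8a1 and Col22a1 also had all 3 DJ-1 KO OVA libraries above all 6 wild-type libraries. Col8a1, a short-chain network collagen of vessel walls, had 47, 19 and 50 reads in DJ-1 KO OVA, 13, 16 and 9 in WT OVA and 13, 16 and 21 in WT PBS, so DJ1_KO_OVA_266 was above the wild-type libraries in FPKM (0.103 against at most 0.0995) and not in reads. Col22a1, a collagen of tissue junctions, had 11, 10 and 6 reads in DJ-1 KO OVA, 0, 4 and 0 in WT OVA and 0, 0 and 3 in WT PBS. Both were chosen after their values were seen, and neither was tested at the filter used.

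Of 7 mesothelial markers 0 were called between DJ-1 KO OVA and WT OVA, with summed levels of 70.1 to 127 and 84.6 to 98.5 FPKM, and the WT PBS sums ran from 25.2 to 89.5 FPKM. Among 5 tested basal epithelial markers 0 rose and 1, Dapl1, fell (limma adjusted p under 0.05). Of 3 tested nuclear-retained RNAs 0 were called. Of 8 heart and skeletal muscle markers only 3 reached the filter, and 2 of these, Actc1 and Acta1, fell. These counts are to be read against the 5.93% of all tested genes called higher and 8.24% called lower between DJ-1 KO OVA and WT OVA.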
